A study of Mus musculus with 24 samples.

Results

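Bone with teeth and the gum that covers it are neighbours in the mouth, but only the bone holds marrow. The immune and marrow genes of the 2 tissues were compared in ovariectomized mice with periodontitis, which lacked ovarian estrogen. Of the 24 poly(A) RNA-seq libraries of the study, 8 belong to this comparison by their labels: 4 of gingiva, the soft tissue around the upper molars, and 4 of the dentoalveolar complex (DAC), the jaw bone harvested together with its teeth after soft tissue had been removed. All were from wild type female C57BL/6J mice, 11 weeks old at the start. These OVX mice had both ovaries removed on day 0 and were given vehicle from day 4. A silk ligature, which gathers bacterial plaque and starts bone loss, was tied around the upper second molars on day 7, and the mice were killed on day 14. The other groups, used only in the last comparison, were Sham mice (sham surgery and vehicle) and OVXE2 mice (ovariectomy and 1 µg estradiol benzoate per day in 100 µL of corn oil), with 4 libraries per tissue each and the same ligature. No group without a ligature was among the libraries, so each value is one of inflamed tissue. A group's 4 libraries are biological replicates by their labels, which leave unsaid whether each is a separate mouse and whether the tissues were paired within mice, so p-values measure the spread between these libraries.

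Blood cells are made in bone marrow from stem cells held by stromal cells that secrete the chemokine CXCL12. Neutrophils are built there in stages: promyelocytes fill primary granules with proteases and myeloperoxidase, myelocytes fill secondary granules with lactoferrin and cathelicidin, and finished cells leave for blood and tissue with neither set of granule genes active. Red cells, platelets, eosinophils and B cells also begin in marrow. Gingiva has no marrow. It carries a stratified epithelium that makes its own antimicrobial peptides and interleukin-1 family cytokines, and in periodontitis it fills with neutrophils that arrive already made. Estrogen loss is known to raise B cell production in marrow and osteoclast formation in bone.

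The genes described were the members of 27 lists of immune and marrow genes, 548 symbols in all, of which 417 were in the count tables and 395 had counts high enough to be tested. Lists share some members. A member that passed this filter through 1 tissue alone had to differ, so counts over tested members describe them and are no support of their own.

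The 8 libraries held 18598422 to 24070492 gene counts in gingiva and 24341708 to 29248358 in the DAC. Genes of stratified epithelium made up 11.8 to 12.7% of counts in gingiva and 0.116 to 0.494% in the DAC, and genes of osteoblasts and osteocytes 6.30 to 8.67% in the DAC and 0.286 to 0.604% in gingiva, as the labels of the tissues imply. All 10 epithelial identity genes tested were higher in gingiva and 13 of 14 osteoblast genes were higher in the DAC by more than 2-fold. The DAC libraries also held RNA of nasal glands, whose listed genes took 0.284 to 13.9% of counts against 0.132 to 0.457% in gingiva. DAC library 1 stood apart: the nasal gland gene Bpifb9b alone took 9.43% of its counts, and 13.5% of its reads mapped to several places. Brain neuron genes took 0.00682 to 0.0191% of DAC counts. The share of reads on the strand that was not counted was under 5% in DAC libraries 1 and 2 and gingiva library 4, and 6.59 to 8.47% in the others. The part of these features in the results was not tested, and counts are given below also without DAC library 1.

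Marrow and immune genes were on the whole higher in the DAC. The 2 tissues differ so widely that 71% of all 13123 genes tested passed a plain test at an adjusted p under 0.05, so a gene is called here only where its difference exceeded 2-fold in a test against that threshold (edgeR, Benjamini-Hochberg adjusted p under 0.05 over all genes). By that rule 20% of all genes were higher in the DAC and 11% were higher in gingiva, against 37.6% and 33.4% by the plain test. Of the 395 members, 186 were higher in the DAC, 37 were higher in gingiva and 172 did not pass. The median member differed by 1.41 on the log2 scale, DAC minus gingiva, and the median gene by 0.046. Among the 145 marrow genes tested, 92 were higher in the DAC and 6 in gingiva (median 2.32). Among the 258 immune genes, 98 were higher in the DAC and 32 in gingiva (median 1.19). Without DAC library 1 the member counts were 181 and 38. All 4 DAC values lay above all 4 gingival values for 248 members, and for 35.5% of all genes, and below them for 50 members, and for 31.1% of all genes. In whole tissue, more cells of a type and more RNA per cell cannot be told apart.

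**Figure D1:**
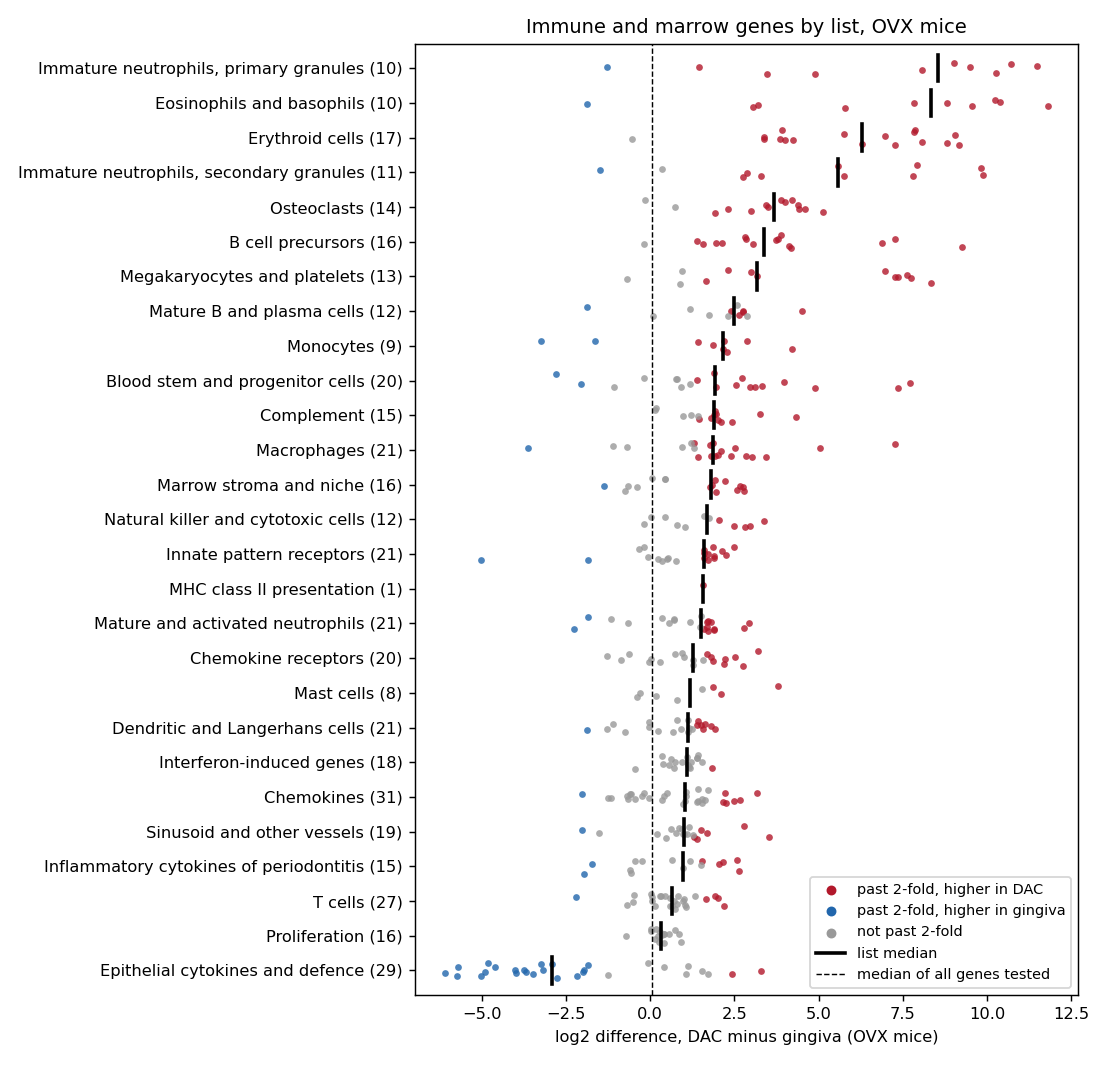
Log2 difference between DAC and gingiva in OVX mice (x axis) for the tested members of each immune and marrow list (y axis, number tested in brackets), with 1 point per gene, the list median as a bar and the median of all genes as a dashed line. Medians run from 8.55 for primary granule genes down to -2.91 for epithelial cytokines and defence, the single list with a negative median.

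Primary granule genes of immature neutrophils had the largest median of the 27 lists. Of 10 genes of the primary granule stage, 9 were higher in the DAC and 1 in gingiva, with a median log2 difference of 8.55. Of 11 secondary granule genes, 9 were higher in the DAC and 1 in gingiva, with a median of 5.59. That was below the medians of eosinophil and basophil genes (8.33) and of red cell genes (6.28). Promoter stretches of 3 of these genes are shown because the members differ together between tissues and some hold the same short word. In the 250 bases before the start of each gene, the letters GAGGAA, the core bound by the myeloid factor PU.1, occurred on either strand in 8 of the 16 granule genes higher in the DAC that had a promoter entry (50%), against 23.1% of 27025 mouse promoters. In the other sets searched, GAGGAA occurred in 33.3% of erythroid genes, 28.6% of epithelial defence genes and 20% of B cell precursor genes. The looser word TTNNGNAA of the C/EBP factors occurred in 9 of the 16 (56.3%), against 36.9% of all promoters, but about as often in the other sets searched: in 60% of B cell precursor genes, 50% of erythroid genes and 50% of epithelial defence genes. Matches of the 2 words can overlap. A match of letters is a description and no evidence of binding. The stretches below are from RefSeq (GRCm38.p6, each upstream of the RefSeq start and read along the gene's strand), with GAGGAA in capitals. They lie at chr10:79886192-79886241 (plus strand), chr10:79879547-79879596 (plus strand, inside a longer transcript model of Prtn3) and chr11:87793534-87793579 (plus strand).
Elane: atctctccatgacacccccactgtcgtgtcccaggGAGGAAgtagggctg
Prtn3: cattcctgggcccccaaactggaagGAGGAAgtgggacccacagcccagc
Mpo: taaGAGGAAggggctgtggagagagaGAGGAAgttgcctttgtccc

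The genes behind these promoters were close to absent from gingiva. Elane, which encodes neutrophil elastase, had 113, 187, 138 and 157 CPM (counts scaled to the size of the library) in DAC libraries 1 to 4 and 0.0897, 0, 0.093 and 0 CPM in gingiva libraries 1 to 4. Mpo, myeloperoxidase, had 327, 452, 354 and 332 CPM in the DAC and 0.224, 0.165, 0.279 and 0.172 CPM in gingiva. Every DAC library was thus more than 3 orders of magnitude above every gingival one for Mpo, a log2 difference of 10.72 (SE 0.203, adjusted p = 1.3e-08 in the 2-fold test). Prtn3, proteinase 3, stood at 89.3 to 174 CPM against 0.0448 to 0.276, and Ctsg, cathepsin G, at 43.6 to 77.3 against 0 to 0.233. Fcnb, ficolin B of the same granules, had 3 counts over the 4 gingival libraries and 5432 over the DAC libraries, a ratio of 1428 (95% Poisson interval 488.7 to 6926, counting error only). Cebpe, the transcription factor that leads cells from primary to secondary granules, was at 15.6 to 25.9 CPM in the DAC and at 0 to 0.14 in gingiva. The exception among the 10 was Gstm1, a glutathione transferase found in many cell types, with 134 to 190.1 CPM in the DAC and 332 to 417 in gingiva (log2 difference -1.29). Its call was lost with DESeq2 (adjusted p = 0.0671), limma-voom, upper-quartile scaling, without gingiva library 4 and without DAC library 3.

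Secondary granule genes fell into a set read mainly in the DAC and a set that gingiva also expressed. Camp, the cathelicidin precursor, had 240, 452, 341 and 436 CPM in the DAC and 0.807, 0.22, 0.326 and 0.172 in gingiva, a log2 difference of 9.87 (SE 0.424). Ngp, neutrophilic granule protein, had 1103, 1755, 1095 and 1539 CPM against 1.66, 1.05, 1.49 and 1.77 (9.83, SE 0.284). Chil3, a chitinase-like protein, differed by 7.81 and Mmp8, neutrophil collagenase, by 5.59. Gingiva had clear levels of the other set. Lactoferrin (Ltf), which gland and epithelial cells also make, had 978, 854, 513 and 825 CPM in the DAC and 153, 52.2, 105 and 124 in gingiva (2.87, SE 0.335). Lcn2, the siderophore-binding lipocalin 2, which inflamed epithelium makes too, stood at 358 to 591 against 34.7 to 62.4 CPM (3.29, SE 0.277). In both cases the groups did not overlap. Ltb4r1, the leukotriene B4 receptor, was the member higher in gingiva, at 67.2 to 78.7 CPM against 22 to 30.7.

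The gap narrowed in genes of finished neutrophils. Of 21 such genes, 10 were higher in the DAC, 2 were higher in gingiva and 9 did not pass, with a median log2 difference of 1.51. Csf3r, the receptor for granulocyte colony-stimulating factor, had 151, 143, 115 and 167 CPM in the DAC and 25.6, 70.3, 32.5 and 48.8 in gingiva (1.70, SE 0.292, adjusted p = 0.0171), a call that DESeq2 did not make (adjusted p = 0.0801). Cxcr2, which guides neutrophils to CXC chemokines, stood at 44.7 to 89.1 CPM against 14.9 to 22.9 (1.69). The alarmin genes S100a8 and S100a9, which mature neutrophils and inflamed epithelium both express, differed less. S100a8 had 1118, 1560, 1467 and 1814 CPM in the DAC and 1246, 1139, 986 and 1329 in gingiva. These groups overlapped, and the difference of 0.34 (SE 0.167) did not pass the plain test either (adjusted p = 0.093), though it did without DAC library 1 (0.45, adjusted p = 0.0156). S100a9, at 1976 to 3246 CPM in the DAC and 1384 to 2173 in gingiva, in groups that overlapped, differed by 0.70 (SE 0.211), which passed the plain test (adjusted p = 0.0142) but not the 2-fold one. Il1b, the interleukin 1β gene, had 199.9, 171, 134 and 246 CPM in the DAC and 35.2, 101, 48.9 and 78.0 in gingiva, with no overlap. Its difference of 1.51 (SE 0.325) passed the plain test but not the 2-fold one (adjusted p = 0.0696; 0.0153 without gingiva library 2). The members higher in gingiva were Slc7a11, a cystine transporter (-2.26), and Il1rn, the interleukin-1 receptor antagonist (-1.85). The neutrophil chemokine Cxcl3 was at 84.6 to 133 CPM in gingiva and 37.5 to 50 in the DAC, a difference of -1.17 that passed the plain test only.

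**Figure D2:**
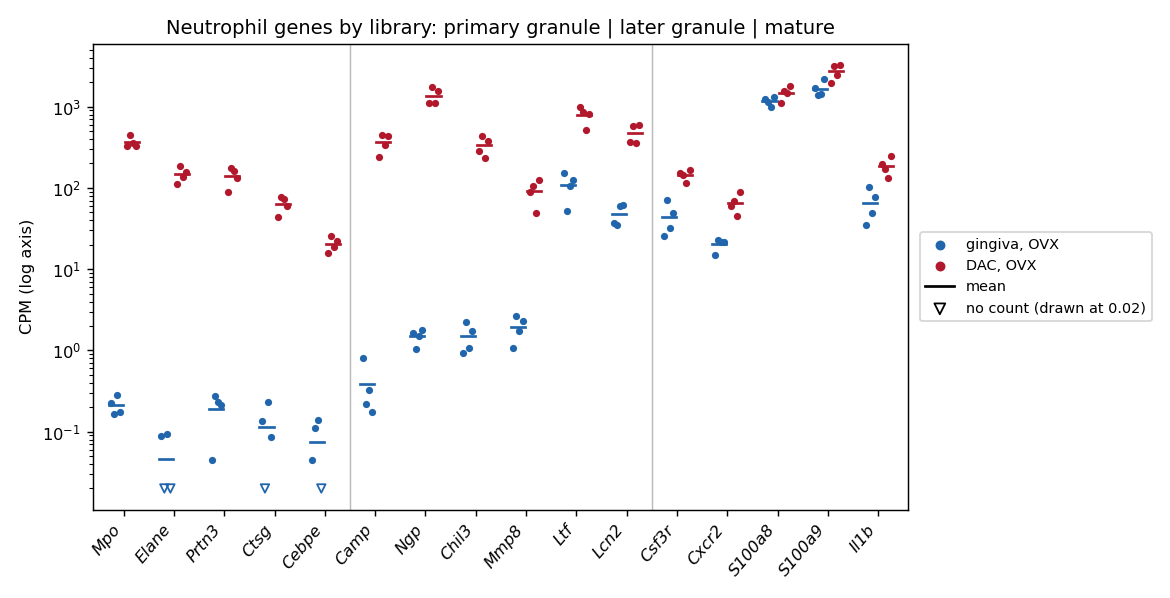
CPM on a log axis for neutrophil genes in the 4 gingival (blue) and 4 DAC (red) OVX libraries, ordered from primary granule genes (left) through later granule genes to genes of mature cells (right), with group means as bars and open triangles for libraries with no count. Mpo to Cebpe lie under 0.3 CPM in every gingival library, whereas S100a8 lies at 986 to 1814 CPM in all 8 libraries.

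Red cell genes also set the tissues apart. Of 17 tested, 16 were higher in the DAC, with a median log2 difference of 6.28. The word AGATAA, bound by GATA factors such as the red cell regulator GATA1, occurred on either strand in 5 of the 12 genes higher in the DAC that had a promoter entry (41.7%), against 10.3% of all 27025 promoters. Stretches of 3 of them are given from RefSeq (GRCm38.p6), at chrX:150547297-150547346 (plus strand), chr9:21963617-21963666 (minus strand) and chr4:134864456-134864505 (plus strand), with AGATAA or its reverse complement TTATCT in capitals.
Alas2: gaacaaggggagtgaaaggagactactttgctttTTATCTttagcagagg
Epor: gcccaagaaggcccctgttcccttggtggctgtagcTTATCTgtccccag
Rhd: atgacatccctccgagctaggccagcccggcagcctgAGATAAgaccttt

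Genes of nucleated red cell precursors were almost confined to the DAC libraries among these 8, while globin RNA, which circulating red cells carry, was also read in gingiva. Slc4a1, the anion exchanger band 3, had 201, 234, 94.6 and 157 CPM in the DAC and 0.135, 0.11, 0.326 and 0.56 in gingiva (9.17, SE 0.462). Epor, the erythropoietin receptor, and Rhd, the Rh blood group protein, differed by 5.75 and 7.28. Gata1 had 3 counts over the 4 gingival libraries and a ratio of 300.3 (95% Poisson interval 102.7 to 1456). Alas2, which starts haem synthesis in red cells and stays in young circulating ones, had 101, 161, 72.8 and 126 CPM against 8.92, 3.91, 6.98 and 10.3 (3.93, SE 0.338). The β-globin gene Hbb-bs had 874, 2066, 1176 and 1452 CPM in the DAC and 128, 62.9, 72.6 and 124 in gingiva (3.85, SE 0.349). Globin genes have near-identical copies, so the split between Hbb-bs and Hbb-bt, or between the 2 α-globin genes, is uncertain. The remaining member, the mitochondrial iron carrier Slc25a37, was at 137 to 184 CPM in gingiva and 83.2 to 125 in the DAC (-0.55).

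Platelet-forming cells gave a like picture. Of 13 megakaryocyte and platelet genes, 10 were higher in the DAC, with a median of 3.17. Tubb1, the platelet tubulin, had 27.1, 29.0, 11.9 and 14.4 CPM in the DAC and 0.0448, 0.11, 0.0465 and 0.0431 in gingiva (8.33, SE 0.501). Pf4, platelet factor 4, stood at 51.7 to 84.5 CPM against 4.21 to 10.8 (3.17). Ppbp, which also yields a neutrophil-attracting chemokine, went the other way in the plain test, with 653, 565, 441 and 447 CPM in the DAC and 652, 833, 814 and 1088 in gingiva (-0.69, SE 0.186). DAC library 1 lay above gingiva library 1, so these groups overlapped.

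Of 20 genes of blood stem and progenitor cells, 12 were higher in the DAC and 2 were higher in gingiva, with a median of 1.93. Myb, which keeps progenitors dividing, had 41.2, 38.8, 41.2 and 33.6 CPM in the DAC and 2.96, 2.54, 2.46 and 1.98 in gingiva (3.96, SE 0.141). Spi1, the gene of PU.1 itself, stood at 84.6 to 127 CPM against 10.9 to 18.1 (2.95), and Gfi1, a repressor needed for neutrophil formation, at 9.72 to 15 against 0.359 to 0.465 (4.90). Kit, the stem cell factor receptor, which mast cells and melanocytes carry as well, was less far apart, at 30.4 to 41.6 CPM against 11.0 to 18.4 (1.38). The call for Kit was lost in 9 of the 18 alternatives, among them DESeq2 (adjusted p = 0.276). Meis1 was higher in gingiva, with 59.1 to 69.7 CPM against 5.29 to 15.8 (-2.81); this homeobox factor is active in many tissues besides stem cells.

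Eosinophil granule genes were read almost wholly in the DAC. Of 10 eosinophil and basophil genes, 9 were higher there (median 8.33). Prg2, eosinophil major basic protein, had 126, 80.5, 54.9 and 248 CPM in the DAC and 0.0897, 0.11, 0.233 and 0.215 in gingiva (9.55, SE 0.697). Epx, eosinophil peroxidase, had 2 counts over the 4 gingival libraries and 3853 over the DAC libraries, a ratio of 1520 (95% Poisson interval 420.7 to 12550). Ear6, an eosinophil ribonuclease with near-identical relatives, had no count in gingiva and was at least 557.1-fold higher in the DAC, taking a floor of 3 counts over the group. DAC library 4 was the highest of the 4 for Prg2, Epx and Ear6. Ccr3, the eotaxin receptor that eosinophils keep in tissue, stood at 6.14 to 11.3 CPM against 0.717 to 1.34 (3.21). Alox15, a lipoxygenase also made by epithelium, was higher in gingiva at 24 to 49.9 CPM against 5.64 to 13.4 (-1.87). Mcpt8, a basophil protease, had 2 gingival counts and a ratio of 271.3 (75.11 to 2241).

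Genes of mast cells, which mature in connective tissue, gave a smaller gap. Of 8 tested, 3 were higher in the DAC and none in gingiva, with a median of 1.17, and 4 passed the plain test toward the DAC. The list took 0.0155 to 0.0225% of counts in the DAC and 0.00326 to 0.00724% in gingiva. The connective tissue mast cell proteases Mcpt4, Cma1 and Cpa3 did not pass either test. Mcpt4 had 6.31, 7.24, 8.30 and 6.31 CPM in the DAC and 2.87, 6.61, 16.9 and 8.10 in gingiva (-0.29, SE 0.436, plain adjusted p = 0.563), and without gingiva library 3, its highest, the difference was 0.26. Cma1, chymase, differed by 0.19 (SE 0.397) and Cpa3, carboxypeptidase A3, by 0.79 (SE 0.504). The 3 of 8 mast cell genes higher in the DAC were Mcpt2, Hdc, the histamine-forming enzyme, and Il1rl1, the interleukin-33 receptor. The latter 2 are active in other cells of marrow and blood too.

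B cell development was read in the DAC. Of 16 precursor genes, 15 were higher there and none in gingiva, with a median of 3.39. Rag1, which cuts DNA to assemble antigen receptors, had 29.2, 17, 15.1 and 14.5 CPM in the DAC and 0.0448, 0.0551, 0.233 and 0.129 in gingiva (7.27, SE 0.428). DAC library 1 was the highest, and the 4 DAC values all lay above 14. Rag2, its partner, had no count in gingiva and 2.82 to 3.45 CPM in the DAC, and was at least 88.61-fold higher with a floor of 3 counts over the group. Vpreb3, a gene of B cell precursors, stood at 16.2 to 25 CPM against 0.0431 to 0.326 (6.89). Cecr2, a chromatin remodelling factor, was closer, with 28.2, 18.3, 16.1 and 18.9 CPM against 3.18, 4.68, 4.42 and 6.33 (2.13, SE 0.243). Foxo1, a factor of many cell types, was the member that did not pass (-0.18). The palindromic EBF word, searched in the same window, was in none of the 10 precursor genes higher in the DAC that had a promoter entry, and in 0.788% of all promoters.

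Genes that B cells keep after leaving marrow were less uniform in gingiva, where library 3 stood out. Cd79a, of the B cell receptor, had 32.5, 32.4, 55.9 and 33.6 CPM in the DAC and 1.26, 0.165, 9.02 and 0.56 in gingiva (3.80, SE 0.851, adjusted p = 0.0106 in the 2-fold test). Pax5, the factor that fixes B cell identity, had 31.1, 20.3, 24.5 and 21.7 CPM against 1.12, 0.165, 5.21 and 0.776 (3.73, SE 0.696). The groups did not overlap for either gene, but gingiva library 3 was the highest of its group for both. Of 12 mature B and plasma cell genes, 5 were higher in the DAC and 1 in gingiva (median 2.50). Without gingiva library 3, 9 were higher in the DAC. Jchain, which joins antibodies for secretion, had 18.7, 28.9, 57.8 and 28.9 CPM against 0.493, 0.441, 12 and 5.21 (2.88, SE 0.854), and missed the 2-fold threshold with all libraries (adjusted p = 0.0515) but not without gingiva library 3 (adjusted p = 0.00999). Igkc, the κ light chain, ran from 90.1 to 353 CPM in the DAC and from 2.20 to 86.8 in gingiva, so the groups met closely, and its difference of 2.58 (SE 1.00) passed only the plain test. Prdm1, the plasma cell factor that keratinocytes express as well, was higher in gingiva at 79.9 to 114 CPM against 23.6 to 31.6 (-1.87). Most heavy chain genes of the list are not analysed here.

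T cell genes differed less than B cell genes in their median, 0.66. Of 27 tested, 4 were higher in the DAC, 1 was higher in gingiva and 22 did not pass the 2-fold test. By the plain test 10 were higher in the DAC and 2 in gingiva. The counts toward the DAC were near or under the shares of all genes, 20% by the 2-fold test and 37.6% by the plain test. Cd3e, of the T cell receptor complex, had 3.91, 1.32, 3.63 and 3.91 CPM in the DAC and 3.81, 1.71, 3.95 and 2.71 in gingiva. These ranges overlap almost wholly, and the difference of 0.07 (SE 0.383) changed sign when some single libraries were left out. Trac, the α chain constant region, stood at 4.44 to 6.93 CPM against 2.59 to 4.21 (0.81), which passed the plain test. Cd4, which is not confined to T cells, was among the 4, with 15.4, 16.1, 17.6 and 21 CPM against 2.51, 3.31, 4.93 and 4.52 (2.20, SE 0.218). Tcf7, a factor of T cells and early progenitors, differed by 1.93. Il23r, the interleukin-23 receptor, differed by 1.66, but by 0.73 when reads of both strands were counted, and that call was lost. Trbc2 was higher in gingiva (-2.20), whereas its near-identical partner Trbc1 did not pass (0.60), so the split between these 2 receptor segments is uncertain. Genes of natural killer cells leaned to the DAC, with 5 of 12 higher there and none in gingiva (median 1.67). Nkg7, of cytotoxic granules, had 14.5, 17.3, 18 and 17.1 CPM against 2.96, 1.87, 2.14 and 1.55 (2.97, SE 0.199), while the receptor gene Klrd1 did not pass (0.44, SE 0.234).

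**Figure D3:**
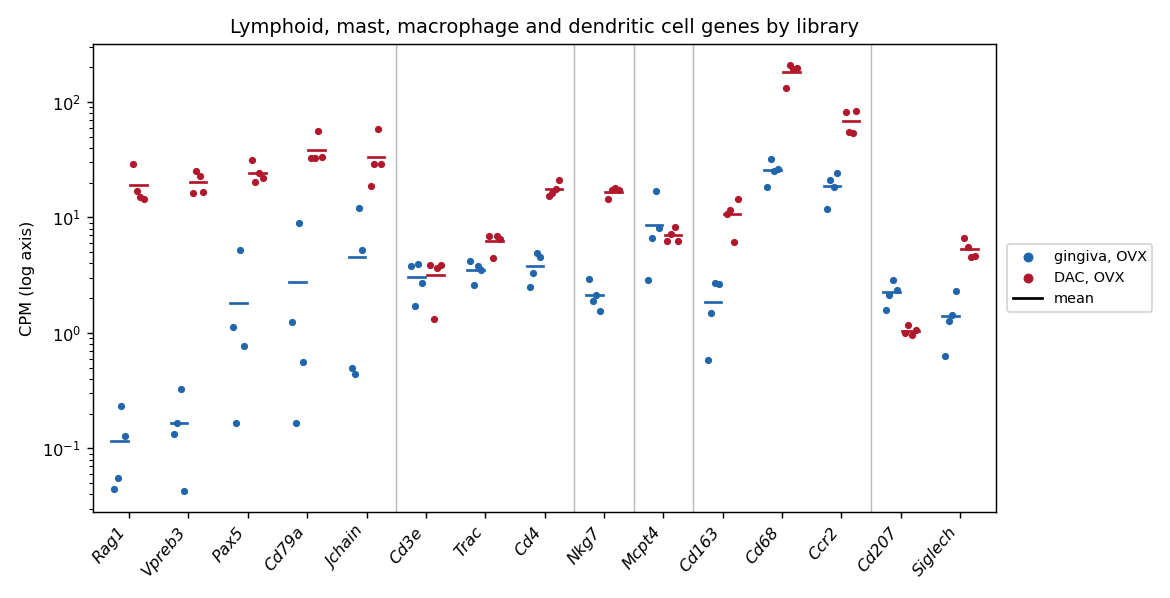
CPM on a log axis for B cell, T cell, natural killer, mast cell, macrophage, monocyte and dendritic cell genes in the 4 gingival (blue) and 4 DAC (red) OVX libraries, with group means as bars. Rag1 and Vpreb3 are under 0.4 CPM in all gingival libraries, Cd3e and Mcpt4 overlap between tissues, and Cd207 is higher in gingiva.

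Monocyte and macrophage genes were higher in the DAC with a few wide exceptions. Of 9 monocyte genes 7 were higher in the DAC and 2 in gingiva (median 2.16), and of 21 macrophage genes 15 and 1 (median 1.85). Clec12a, an inhibitory receptor of myeloid cells, had 78.7, 105, 104 and 108 CPM in the DAC and 3.54, 7.61, 4.6 and 5.86 in gingiva (4.20, SE 0.229). Ccr2, which brings monocytes out of marrow, stood at 53.5 to 84.0 CPM against 11.9 to 24.1 (1.86). Cd68, a lysosomal protein of macrophages and osteoclasts, stood at 131 to 208 against 18.2 to 32.2 (2.84). Spic and Cd5l, genes of the macrophages that recycle red cells, were among the widest: Spic stood at 3.60 to 6.29 CPM against 0.269 to 0.661 (3.45), and Cd5l had 2 counts in gingiva and a ratio of 189.3 (52.41 to 1563). Siglec1, a marker of macrophages in erythroblast islands, differed by 3.03, and the haemoglobin receptor Cd163, with 10.8, 11.6, 6.14 and 14.5 CPM against 0.583, 1.49, 2.70 and 2.63, by 2.53 (SE 0.444).

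The exceptions were genes that epithelium also expresses or that mark other states. Arg1, arginase 1, had 172, 64.3, 89.0 and 108 CPM in the DAC and 1396, 1179, 1358 and 1377 in gingiva (-3.62, SE 0.289). Klf4, a factor of monocytes and of differentiating keratinocytes, had 88.8, 92.8, 86.2 and 109 CPM against 992, 741, 809 and 1010.2 (-3.24, SE 0.143). Ifi204, an interferon-inducible sensor, differed by -1.63. These genes are abundant enough to turn the summed level: macrophage genes took 0.165 to 0.183% of counts in gingiva and 0.107 to 0.162% in the DAC, and monocyte genes 0.0917 to 0.117% and 0.0518 to 0.0685%, opposite in direction to the list medians. Epithelial identity genes were high in the same gingival libraries, and their part in these values was not tested.

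Of 21 dendritic cell genes, 7 were higher in the DAC and 1 in gingiva (median 1.12), and the 7 became 2 with DESeq2 or limma-voom. Cd207, langerin of the epithelial Langerhans cells, had 1.007, 1.16, 0.965 and 1.06 CPM in the DAC and 1.57, 2.15, 2.88 and 2.37 in gingiva. No library of one tissue overlapped the other, and the difference of -1.10 (SE 0.237) passed the plain test but not the 2-fold one. Itgae, CD103, an integrin of cells that sit within epithelium, was higher in gingiva at 4.74 to 6.23 CPM against 0.76 to 2.36 (-1.89). Siglech, of plasmacytoid cells, went the other way at 4.55 to 6.70 CPM against 0.628 to 2.28 (1.93), and so did Ccr7, which guides mature dendritic cells and naive lymphocytes (1.80). Xcr1, of the cross-presenting subset, was at 0.36 to 1.00 CPM in the DAC and 0.431 to 0.937 in gingiva (-0.02, SE 0.367). The protease Ctss, which prepares class II MHC for peptide loading, was higher in the DAC (1.56), and the other 11 genes of that list are not analysed here.

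Osteoclasts, the bone-resorbing cells formed from monocytes, contributed 14 genes, of which 12 were higher in the DAC and none in gingiva (median 3.68). Acp5, tartrate-resistant acid phosphatase, had 1663, 3251, 2994 and 2604 CPM in the DAC and 121, 169, 143 and 129 in gingiva (4.22, SE 0.241). Ctsk, the collagen-cleaving cathepsin K, stood at 2008 to 3112 CPM against 126 to 239 (4.00). DAC library 1 was the lowest of its group for both. Atp6v0d2, of the proton pump, differed by 4.6 and Calcr, the calcitonin receptor, by 5.14. Tnfrsf11a, the receptor RANK, which macrophages and dendritic cells share, differed by 1.92. Its ligand RANKL (Tnfsf11), the signal that drives osteoclast formation, had 25, 35.3, 28.2 and 32.9 CPM in the DAC and 2.78, 7.27, 4.37 and 5.95 in gingiva (2.58, SE 0.268).

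Niche genes followed the bone. Of 16 marrow stroma genes, 9 were higher in the DAC and 1 in gingiva (median 1.81). Cxcl12 had 412, 539, 414 and 512 CPM in the DAC and 40.4, 73.2, 86.3 and 96.6 in gingiva (2.66, SE 0.255). Vcam1, which anchors blood precursors, differed by 2.79, Csf1, the macrophage growth factor, by 2.21, and Lepr, the leptin receptor of stromal cells, by 1.85. Il7, the growth factor of lymphoid precursors, was near equal, at 1.24 to 1.82 CPM in the DAC and 1.43 to 1.76 in gingiva (0.04, SE 0.209). Cebpa, a myeloid factor that keratinocytes also use, was higher in gingiva at 161 to 192 CPM against 59.6 to 75.9 (-1.38). Of 19 vessel genes 6 were higher in the DAC and 1 in gingiva (median 1.00), and the 6 became 3 with DESeq2 and in the libraries of higher other-strand share. Stab2, a scavenger receptor of sinusoids, was the widest at 5.37 to 9.53 CPM against 0.314 to 1.12 (3.53), and endomucin (Emcn) differed by 1.69. A pair of genes known from lymphatic vessels had lower values in the DAC. Ccl21a, a chemokine for dendritic cells, stood at 23.3 to 51.5 CPM against 3.86 to 19.7 (-2.03), a call lost in 13 of 18 alternatives (DESeq2 adjusted p = 0.0865). Prox1, a lymphatic transcription factor, differed by -1.51, which passed the plain test only, and its groups overlapped.

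Epithelial defence was the one immune or marrow list with a negative median. Of 29 genes, 20 were higher in gingiva and 2 in the DAC (median -2.91). Interleukin-36 family genes were among them. Il1f5, the interleukin-36 receptor antagonist, had 214, 168, 189 and 192 CPM in gingiva and 3.02, 1.56, 2.43 and 4.19 in the DAC (-6.07, SE 0.270). Il1f6, interleukin-36α, had 326, 228, 235 and 303 CPM against 10.6, 0.72, 2.35 and 6.63 (-5.74, SE 0.677), Il1f8, interleukin-36β, differed by -4.90 and Il1f9, interleukin-36γ, by -2.91. Il18 and Il1a, epithelial alarm cytokines, differed by -3.25 and -1.95. Among antimicrobial genes, Defb4, a β-defensin, had 479, 344, 398 and 492 CPM in gingiva and 15.3, 1.20, 5.44 and 10.8 in the DAC (-5.71, SE 0.653). For Il1f6 and Defb4 the DAC order was the same, with library 2 lowest and library 1 highest, as for the epithelial keratin Krt13 (2113, 118, 537 and 2222 CPM) in having library 2 lowest. The part of epithelium in the DAC libraries in these values was not tested. β-defensins are a family of related genes, and counts among close members are uncertain. Slpi, which shields tissue from neutrophil elastase, had 2198, 1737, 1995 and 2196 CPM in gingiva and 153, 128, 147 and 204 in the DAC (-3.68, SE 0.178). The 2 members higher in the DAC were Lcn2, described above, and the acute phase gene Saa3, with 425, 720, 861 and 1184 CPM against 87.9, 204, 91.3 and 210 (2.43, SE 0.402).

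**Figure D4:**
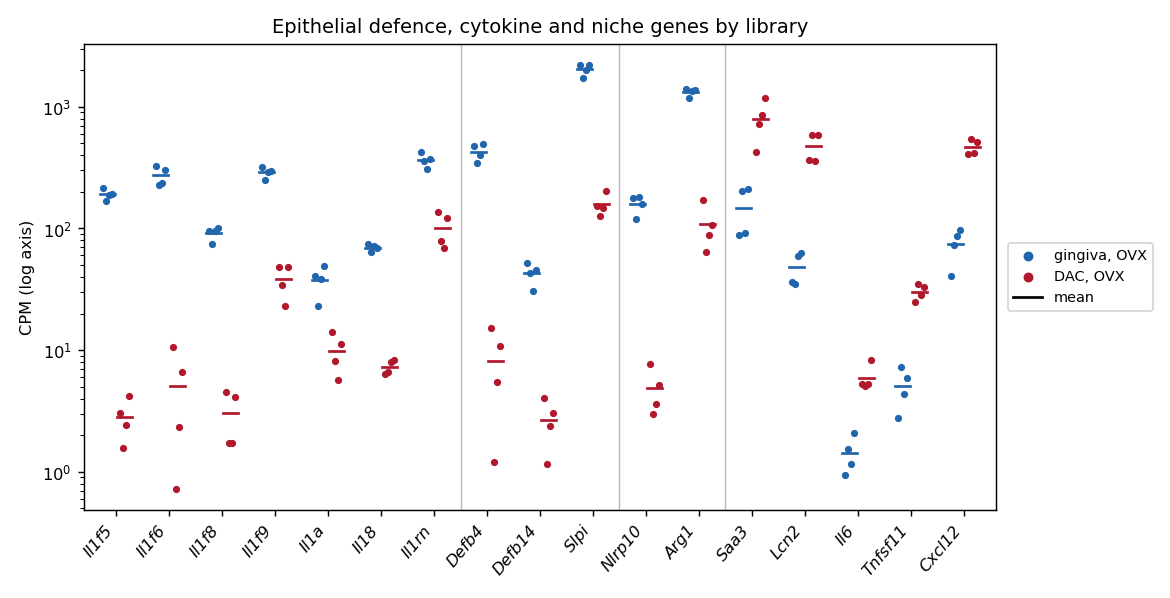
CPM on a log axis for interleukin-1 family genes, defensins and Slpi, other genes higher in gingiva, and defence, cytokine and niche genes higher in the DAC, in the 4 gingival (blue) and 4 DAC (red) OVX libraries, with group means as bars. The 12 genes from Il1f5 to Arg1 are higher in every gingival than in every DAC library, and the 5 genes from Saa3 to Cxcl12 are lower.

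Cytokines of periodontitis were divided. Of 15, 5 were higher in the DAC, 2 in gingiva and 8 did not pass (median 0.98). Il6 had 5.27, 5.04, 5.29 and 8.23 CPM in the DAC and 0.942, 1.54, 1.16 and 2.07 in gingiva (2.06, SE 0.288). Tgfb1, transforming growth factor β1, stood at 286 to 443 CPM against 51.4 to 68.9 (2.65), and Lif, leukaemia inhibitory factor, at 13.4 to 15.1 against 3.67 to 6.33 (1.54). Il17a, which drives bone loss in this model, had 2.09, 1.04, 2.35 and 3.39 CPM in the DAC and 0.673, 1.38, 1.07 and 2.50 in gingiva. These overlapped, and the difference of 0.66 (SE 0.457) did not pass (plain adjusted p = 0.222); in the 5 libraries with the higher other-strand share it was 1.48 (plain adjusted p = 0.0103). Il23a, which sustains IL-17 producing cells, was higher in gingiva at 1.49 to 2.15 CPM against 0.386 to 0.76 (-1.74), a call that DESeq2 did not make (adjusted p = 0.125). The tumour necrosis factor gene is not analysed here.

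Of 31 chemokine genes, 6 were higher in the DAC and 1 in gingiva (median 1.03), a share in the DAC near that of all genes. The 6 became 10 without DAC library 2, and the 1, Ccl21a, became 0 in 12 alternatives. Of 20 chemokine receptors 8 were higher in the DAC and none in gingiva (median 1.26). Besides Cxcl12, Pf4 and Ccl5, the 6 held the macrophage chemokines Ccl3, Ccl9 and Ccl12, of which Ccl9 stood at 67.7 to 110 CPM against 10.5 to 27.3 (2.22). The receptor for CXCL12, Cxcr4, differed by 2.23 and Ccr1 by 2.75. Cxcl9, an interferon-induced attractant of T cells, had 204, 22.2, 153 and 104 CPM in the DAC and 61.1, 34.3, 28.0 and 43.3 in gingiva. DAC library 2 lay below every gingival library, and the difference of 1.54 (SE 0.556) passed the plain test only. The same library was the lowest DAC value for Cxcl10 (9.56 CPM) and Gbp5 (10.2 CPM). Of 18 interferon-induced genes 1 was higher in the DAC, Gbp5, a guanylate-binding protein (1.85), while 13 passed the plain test. The count past 2-fold was 0 in 10 of 18 alternatives, among them DESeq2, limma-voom and leaving out gingiva library 1, 2 or 4 or DAC library 1, 3 or 4, and it was 8 without DAC library 2.

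Complement genes were higher in the DAC in 10 of 15 cases and in gingiva in none (median 1.90). Serping1, the C1 inhibitor, which restrains the pathway, had 688, 915, 893 and 928 CPM in the DAC and 103, 169.6, 207 and 159 in gingiva (2.42, SE 0.211), with no overlap. C1qa, which starts the classical pathway and is made by macrophages, differed by 1.82. Of 21 innate pattern receptors, 11 were higher in the DAC and 2 in gingiva (median 1.60), and the 11 became 6 with DESeq2. The endosomal RNA sensors Tlr7, Tlr8 and Tlr13 differed by 2.24, 2.49 and 2.12. Nlrp10, of the NOD-like family and known from skin, had 178, 119.7, 183 and 159.8 CPM in gingiva and 7.71, 2.96, 3.63 and 5.22 in the DAC (-5.03, SE 0.307), and Nod2, which senses bacterial cell wall, differed by -1.83.

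None of 16 cell cycle genes passed the 2-fold test (edgeR), 7 passed the plain test toward the DAC and 1 toward gingiva, and the median was 0.32. Of all genes, 37.6% passed the plain test toward the DAC and 33.4% toward gingiva. Mki67, present in all dividing cells, had 212, 181, 129 and 152 CPM in the DAC and 192, 161, 127 and 113 in gingiva (0.19, SE 0.198, plain adjusted p = 0.417). Dividing cells are known from marrow and from basal epithelium, and their part in these values was not tested. The replication genes Mcm5 and Mcm2 differed by 0.85 and 0.92.

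The last question was whether the tissue difference in OVX mice was unlike that in mice with ovaries or with estradiol. For each of 14209 genes the difference between tissues in OVX libraries was compared with that in Sham and in OVXE2 libraries in 1 fit of all 24 libraries, in which the differences set against each other share no library, although both contrasts use the OVX libraries. Against Sham, 0% of genes passed (none at adjusted p under 0.05 with edgeR, DESeq2 or limma-voom, and 1212 at an unadjusted p under 0.05 with edgeR). Against OVXE2, 27 genes passed (0.19%), 17 of them with a more positive difference in OVX (0.12%) and 10 with a more negative one (0.0704%). The 27 held 3 immune and marrow members: Rag1, Cecr2 and Myb, all more positive in OVX. Lists and members were chosen with earlier results of these data known, so this count of members is a description only. Counts were 108 with DESeq2 and 15 without gingiva OVXE2 library 1.

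Rag1 had a mean of 18.9 ± 7.03 CPM (SD, n = 4) in the DAC of OVX mice, 1.70 ± 0.918 in OVXE2 and 7.35 ± 2.27 in Sham, while gingival means were 0.117, 0.213 and 0.156. Single gingival libraries were near the floor, at 0.0455 to 0.303 CPM, so the gingival side of the Rag1 contrast rests on few reads. The log2 tissue difference of Rag1 was 7.26 in OVX, 2.98 in OVXE2 and 5.52 in Sham, so that the difference between OVX and OVXE2 was 4.28 (SE 0.757, adjusted p = 0.015). That call was lost with limma-voom (adjusted p = 0.157), with the replicate block and without gingiva OVXE2 library 3 (adjusted p = 0.0706). Cecr2 had 20.3 ± 5.46 CPM in OVX DAC, 4.03 ± 1.55 in OVXE2 and 11.8 ± 3.48 in Sham, against gingival means of 4.70, 5.45 and 4.69. It was thus higher in the DAC in OVX (2.11) but not in OVXE2 (-0.43), and the contrast was 2.54 (SE 0.437, adjusted p = 0.0133), a call lost with the replicate block. Myb had 38.5 ± 3.52 CPM in OVX DAC, 8.5 ± 2.75 in OVXE2 and 24.8 ± 6.86 in Sham, against gingival means of 2.51, 2.44 and 2.84, a contrast of 2.13 (SE 0.314, adjusted p = 0.00312). For all 3 genes the 4 OVX values of the DAC lay above the 4 OVXE2 values. The genes were picked by the contrast on these same values, so this separation is no support of its own.

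**Figure D5:**
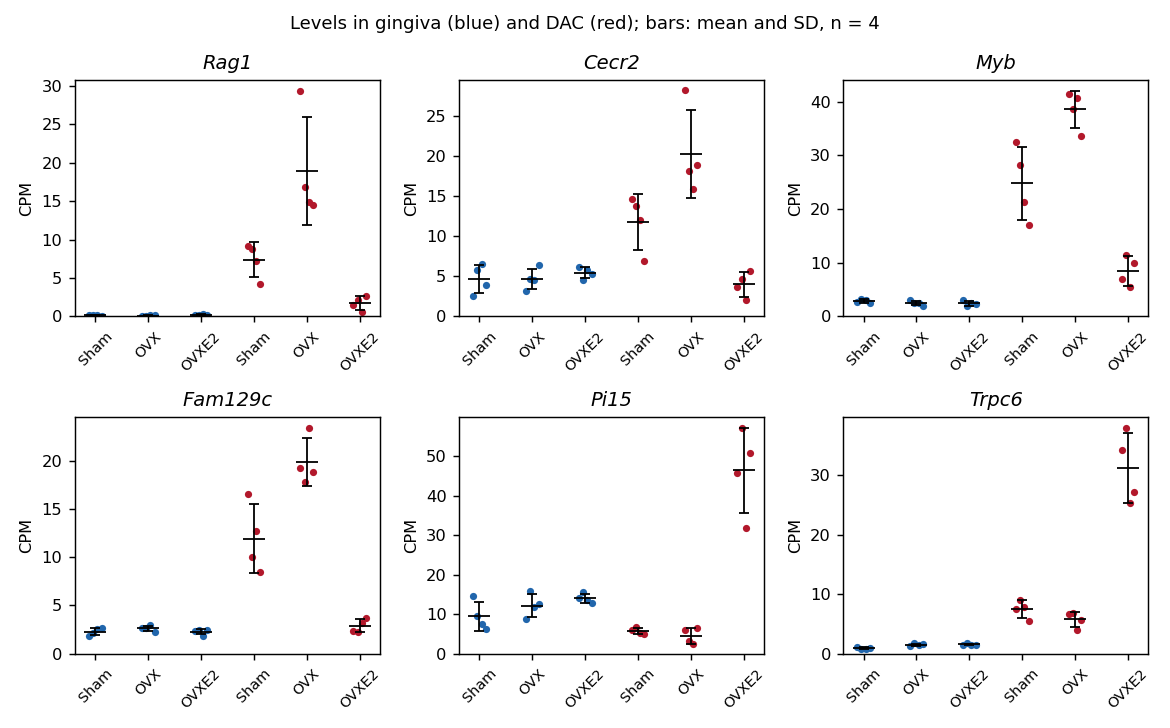
CPM (linear axes from 0) of Rag1, Cecr2, Myb, Fam129c, Pi15 and Trpc6 in the 3 treatment groups of gingiva (blue) and DAC (red), with 1 point per library and bars for mean and SD (n = 4). In the DAC the first 4 genes are highest in OVX and lowest in OVXE2, and Pi15 and Trpc6 are highest in OVXE2.

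Among genes outside the lists, those with the smallest p against OVXE2 included others of blood cells. Fam129c, which is active in B cells, differed by 2.91 between tissues in OVX and by 0.33 in OVXE2 (contrast 2.58, SE 0.278, adjusted p = 6.0e-05). Lrmp, a lymphoid-restricted membrane protein, gave a contrast of 1.57. In the other direction were Trpc6, a cation channel (-2.38, adjusted p = 6.0e-05), and Pi15, a peptidase inhibitor, which was lower in the DAC than in gingiva in OVX (-1.41) and higher in OVXE2 (1.72).

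Most list members did not pass these contrasts. The median log2 difference of primary granule genes was 8.63 in Sham, 8.53 in OVX and 6.68 in OVXE2, that of secondary granule genes 4.64, 5.57 and 3.72, and that of B cell precursor genes 4.39, 3.36 and 2.10. The median over all genes was 0.0697, 0.0564 and 0.0298. The tissue difference, DAC minus gingiva, was more positive in OVX than in OVXE2 for 11 of 11 secondary granule genes, 16 of 17 erythroid genes and 15 of 16 B precursor genes. These were the highest shares among the 27 lists. Other marrow lists were lower, with 7 of 10 primary granule genes, 12 of 21 stem and progenitor genes and 8 of 13 megakaryocyte genes. Some immune lists were high too, with 7 of 8 mast cell genes, 13 of 15 natural killer genes and 18 of 21 mature neutrophil genes. For all genes this share was 46.0%. Against Sham the tissue difference was more positive in OVX for 7 of 11 secondary granule, 12 of 17 erythroid and 7 of 16 B precursor genes. It was so for 5 of 10 primary granule genes and for 50.2% of all genes. Members of a list can vary together, and the lists were chosen with earlier results of these data known, so these counts are descriptions only. Of the members of these lists, only Rag1, Cecr2 and Myb passed the test against OVXE2. Mpo, for one, gave 2.35 (SE 0.704, adjusted p = 0.276) and Vpreb3 gave 3.04 (SE 0.932, adjusted p = 0.301), and DESeq2 called both (adjusted p = 0.0181 and 0.00116). Osteoclast genes went the other way: the difference was more positive in OVX than in OVXE2 for 2 of 14, and than in Sham for 1 of 14. Their medians were 4.00, 3.66 and 4.34, and none passed the test. Epithelial defence genes had medians of -3.31, -2.93 and -3.02, and none passed either.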

How the data were processed

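Poly(A) RNA of gingiva and DAC was sequenced from paired ends. The submitters' processing notes name fastp, STAR, DESeq2 and the mouse build GRCm38 (mm10). Versions and annotation were not given in the sources used here. Raw gene counts were deposited by the authors as 1 table per library with 38321 gene IDs. The opposite-strand column was used, and 4 lines of unassigned reads were dropped (19.8 to 31.6% of reads of the 8 libraries lay on no feature). GENCODE M21 named 38186 IDs.

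The 8 OVX libraries were fitted together on genes kept by filterByExpr, with TMM scaling, in edgeR 4.0.16 (glmQLFit, robust) in R 4.3.3, with 6 residual degrees of freedom and a biological coefficient of variation of 0.226. The plain test was glmQLFTest, the 2-fold test glmTreat at a log2 difference of 1. Positive log2 differences are higher in the DAC. A prior count of 2 entered log2 CPM values. Contrasts between treatment groups used all 24 libraries (18 residual degrees of freedom). A p-value printed without a name is from the 2-fold test where a tissue difference is given. Alternatives were DESeq2 1.42.0, limma-voom (limma 3.58.1), other scalings, no filter, unstranded counts, a replicate block, all 24 libraries in 1 fit, leaving out each library and, added after seeing the data, the other-strand share as a term or its higher-share libraries alone (2 DAC, 3 gingiva).

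Members and lists were chosen with earlier results of these data known. Named genes were, per list, the up to 4 members past 2-fold toward each tissue without overlap and with a mean of at least 0 log2 CPM, a panel, the largest differences over all genes and the smallest p-values of the contrasts; further members described were chosen after their values were seen. Simulated counts (12905 genes) held no tissue difference except in 50 well-counted genes per fold, all raised in the DAC. They gave 2-fold calls for 86% of genes changed 4-fold and 94% of those changed 8-fold, and 2 unchanged genes passed the plain test. In the data 71% of genes passed the plain test, so this recovery need not hold for them or for low counts. For the contrast with OVXE2 (14064 genes), simulated counts kept each tissue's own mean over its treatment groups. In them 50 well-counted genes per fold were raised in the DAC of OVX mice only. Recovered were 54% of genes changed 2-fold, 92% changed 4-fold, 88% changed 8-fold and 92% changed 16-fold. There, 9 unchanged genes were called.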

Additional observations from a re-analysis of the deposited data

Results flagged for a closer look

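Of 286 sets of 4 libraries checked, 1 tissue and 1 gene each, 16 (5.59%) had a library far from the other 3, and chance alone would mark about 1 in 20. Gingiva library 3 was high for the B cell genes Cd79a (9.02 CPM), Cd79b (6.88) and Fcrla (2.28), and gingiva library 1 was low for Cxcr2 (14.9). Gingiva library 4 was high for Il17f (2.63). DAC library 1 was high for Rag1 (29.2) and Bpifb9b (96800) and low for Clec12a (78.7) and Serping1 (688). DAC library 2 was low for Cd3e (1.32) and Trac (4.44) and high for Il23a (0.76). DAC library 3 was high for Cd79a (55.9) and Igkc (353), and DAC library 4 for Il6 (8.23) and Cx3cr1 (45.5).

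The tissue difference in OVX was unlike that in OVXE2 by its own test for Rag1 (4.28), Cecr2 (2.54), Myb (2.13), Fam129c (2.58), Dpp4 (2.14), Ifi209 (1.5), Lrmp (1.57), Skint3 (1.84) and Ffar2 (2.32), and, with the opposite sign, for Trpc6 (-2.38) and Pi15 (-3.14).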

How the results depend on the processing

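Members higher in the DAC by more than 2-fold numbered 162 to 196 and those higher in gingiva 33 to 38 over all 18 alternatives, and counts over all genes stayed within 1.5 times of those reported. The contrast with OVXE2, passed by 27 genes, was passed by 108 with DESeq2, by 9 with the replicate block and by 15 to 33 without single libraries (15 without gingiva OVXE2 library 1); the causes were not tested. None passed against Sham in any alternative run for it, which left out upper-quartile scaling, unstranded counts and the higher-share libraries alone. Same-numbered libraries of the 2 tissues correlated at -0.29 to 0.039 in their deviations from the group means, and differently numbered ones at -0.40 to 0.33. With 4 libraries per tissue, these values cannot tell whether equal numbers share a mouse. With the replicate block, Rag1, Cecr2, Lrmp, Skint3 and Ffar2 lost their contrast calls, and members past 2-fold were 192 and 36. Upper-quartile scaling moved the median of all genes by 0.15. Signs turned for Cd3e (-0.14 without gingiva library 2, -0.05 and -0.04 without DAC libraries 1 and 4; up to 0.33 without others), Mcpt4 (0.26 without gingiva library 3; down to -0.62 without others), the contrasts with OVXE2 of Cd79a (-1.33 to 2.65), Pax5 (-0.71 to 2.94) and Pou2af1 (-0.13 to 3.43), each lowest without gingiva OVXE2 library 1 and highest without gingiva OVX library 3, and Gm6088 (-0.60 with unstranded counts, -0.14 in libraries of higher other-strand share). Depth limits genes with 3 or fewer counts over the gingival libraries, whose ratios carry wide counting intervals.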
